A study of Mus musculus with 12 samples.

Results

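PreMegEs lacking RUNX1C (RUNX1C KO) were compared with P2- PreMegEs, the pro-erythroid fraction of the same progenitor population, across all genes measured in both. PreMegEs are bone marrow progenitors of megakaryocytes, which shed platelets, and of erythroid cells. The comparison used the 6 RNA-Seq libraries that the labels place in these groups, 3 of each, out of 12 libraries in the series. Of the 41128 genes in the count table, 12588 were tested, namely those with at least 1 CPM (counts scaled to the total of the library) in at least 3 of the 6 libraries. At the edge of that limit, the third highest value was 1.02 CPM for Gm16284, which was kept, and 0.996 CPM for Jph1, which was not. The comparison asks what separates RUNX1C KO cells from the P2- cells.

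According to the methods, the mice were C57BL/6 by backcross, males and females, and between 12 and 16 weeks old. Each library was made from sorted cells of 3 pooled mice. P2- and P2+ cells came from Runx1 P1-GFP::P2-hCD4/+ mice, which carry 1 Runx1 allele with a GFP reporter at the distal promoter P1 and a truncated human CD4 reporter at the proximal promoter P2. P2- cells are the PreMegEs without hCD4, and P2+ cells those with it. The labels give the genotype of the RUNX1C KO mice as RUNX1C knockout with no allele named, and that of the WT group as wild type. The study's homozygous RUNX1C knockout mice are P1-GFP/GFP, with the GFP reporter at P1 of both alleles. RUNX1C KO and WT cells were labelled as PreMegEs with no separation by P2 activity. Genotype and sorting gate therefore differ together between RUNX1C KO and P2- cells, and their parts in any difference cannot be told apart. The sources used here do not say whether the RUNX1C KO libraries were prepared and sequenced with the others, nor whether replicates came from separate sorts, so p-values measure the spread between these libraries.

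Runx1 encodes the DNA-binding subunit of core binding factor, a transcription factor of blood stem cells, megakaryocytes and lymphocytes. Its 2 promoters start transcripts that differ at their 5′ ends: P1 gives the isoform RUNX1C, and P2 gives RUNX1B. In the fork between the Mk and erythroid fates, RUNX1 acts with Ets factors such as FLI1 and with GATA factors at megakaryocyte genes, whereas KLF1 drives the erythroid program. Megakaryocyte commitment brings in the platelet adhesion receptors (integrin αIIbβ3 and the GPIb-V-IX complex), alpha granule cargo such as PF4, and signalling enzymes of the platelet.

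Promoter sequences are shown for both promoters of Runx1, which define the groups, for 3 genes that rose in RUNX1C KO cells and hold a RUNX or GATA motif, and for the 2 named protein-coding genes that fell most. Each is the stretch of 250 bases before a RefSeq transcript start on GRCm38.p6, written 5′ to 3′. Capitals mark the RUNX motifs TGTGGT and TGCGGT and the GATA motifs AGATAA and TGATAA on either strand, which share no bases here.
Runx1 P1 (chr16:92826075-92826324, minus strand): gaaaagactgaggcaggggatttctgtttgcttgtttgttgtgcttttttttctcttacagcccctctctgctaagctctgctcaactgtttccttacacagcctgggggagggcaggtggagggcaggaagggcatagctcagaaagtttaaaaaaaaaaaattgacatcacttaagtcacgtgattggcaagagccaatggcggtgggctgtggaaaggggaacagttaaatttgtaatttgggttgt
Runx1 P2 (chr16:92697330-92697579, minus strand): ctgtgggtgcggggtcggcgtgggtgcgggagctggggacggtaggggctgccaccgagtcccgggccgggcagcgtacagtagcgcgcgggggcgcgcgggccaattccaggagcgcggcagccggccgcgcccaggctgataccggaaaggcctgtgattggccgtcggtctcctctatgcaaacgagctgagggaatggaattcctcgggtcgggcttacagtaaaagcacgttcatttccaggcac
Kcnj5 (chr9:32344345-32344594, minus strand): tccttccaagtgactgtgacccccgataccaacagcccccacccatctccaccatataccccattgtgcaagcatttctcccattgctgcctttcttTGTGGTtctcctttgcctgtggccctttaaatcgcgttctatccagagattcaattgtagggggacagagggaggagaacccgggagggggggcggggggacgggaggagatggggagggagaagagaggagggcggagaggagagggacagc
F2rl2 (chr13:95696670-95696919, plus strand): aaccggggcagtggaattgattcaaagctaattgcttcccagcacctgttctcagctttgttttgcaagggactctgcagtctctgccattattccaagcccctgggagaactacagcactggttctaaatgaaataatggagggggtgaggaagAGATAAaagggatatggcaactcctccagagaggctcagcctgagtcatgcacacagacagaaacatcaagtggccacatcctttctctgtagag
Gp9 (chr6:87777820-87778069, plus strand): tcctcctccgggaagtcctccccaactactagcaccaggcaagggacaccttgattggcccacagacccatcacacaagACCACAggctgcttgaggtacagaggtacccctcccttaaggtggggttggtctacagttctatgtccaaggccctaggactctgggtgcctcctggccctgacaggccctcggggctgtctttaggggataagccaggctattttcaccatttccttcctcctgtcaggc
Scin (chr12:40134229-40134478, minus strand): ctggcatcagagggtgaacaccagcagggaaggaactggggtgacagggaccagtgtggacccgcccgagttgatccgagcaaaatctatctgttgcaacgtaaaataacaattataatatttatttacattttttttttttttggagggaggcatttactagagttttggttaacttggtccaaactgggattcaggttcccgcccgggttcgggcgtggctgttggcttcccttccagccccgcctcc
Ifitm1 (chr7:140967826-140968075, plus strand): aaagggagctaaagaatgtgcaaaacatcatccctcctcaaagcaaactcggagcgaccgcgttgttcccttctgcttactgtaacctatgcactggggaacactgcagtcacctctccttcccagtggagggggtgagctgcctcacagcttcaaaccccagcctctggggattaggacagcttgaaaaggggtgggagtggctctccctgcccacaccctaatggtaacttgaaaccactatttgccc

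No match was found in the printed bases of P1, P2, Scin or Ifitm1. Kcnj5 and Gp9 held 1 RUNX motif each, and F2rl2 held 1 GATA motif at bases -95 to -90. Windows were found for 41 of the 55 genes that rose and for 5 of the 9 that fell. RUNX motifs were in 13 of the 47 windows of the genes that rose (27.7%), in 0 of the 5 windows of those that fell, in 17.7% of the 10982 windows of the tested genes, and in 18.6% of all 32851 windows. GATA motifs were in 8 of the 47 windows (17%), in 1 of the 5, in 9.46% of the windows of tested genes and in 16.6% of all windows. These are matches of letters and were not tested.

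Total counts were between 11044030 and 11807795 in the RUNX1C KO libraries and between 10726098 and 14445026 in the P2- libraries. The 3 counts taken as the limit of a count of 0 correspond to between 0.208 and 0.280 CPM and cover counting error only. P2- replicate 2 stood apart from the other libraries of its group. Its 26 immediate early genes, which cells switch on within minutes of stimulation or handling, summed to 15994 CPM, against 348 and 391 CPM in P2- replicates 1 and 3 and between 385 and 837 CPM in the RUNX1C KO libraries. The same sum ranged from 536 to 12056 CPM among P2+ libraries, which are set beside these groups below, and from 468 to 1707 CPM among WT libraries. The chi-square per degree of freedom of a pair of P2- libraries was 29.4 and 32.3 with replicate 2 and 9.99 without it, and between 4.61 and 5.37 for the RUNX1C KO pairs. Counts of gene lists are therefore also given without P2- replicate 2 where this changes them.

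The markers of the gate were read in both groups. Kit, the stem cell factor receptor, was between 984 and 1143 CPM in RUNX1C KO and between 913 and 1157 CPM in P2- libraries. Slamf1 (CD150), Gata1, Gata2, Klf1 and Gfi1b were also present in all 6 libraries. Ly6a (Sca1) was at most 2.60 CPM and Fcgr3 (CD16) at most 1.18 CPM. Fcgr2b (CD32), which the antibody of the gate also binds, was 12.4, 11.9 and 11.7 CPM in RUNX1C KO and 7.01, 8.17 and 7.56 CPM in P2- libraries, without overlap (log2 0.66, adjusted p = 0.0854, and 0.0487 without P2- replicate 2). The transcripts of Itga2b (CD41) and Eng (endoglin) were present in every library, although the study gated for cells without these antigens on the surface. Kit, Slamf1, the transcription factors and the low Ly6a and Fcgr3 thus match the labelled cell type, whereas transcripts of Fcgr2b, Itga2b and Eng were present.

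Few genes passed the criteria for a difference between RUNX1C KO and P2- PreMegEs, and most of those that did were higher in RUNX1C KO cells. Many genes of megakaryocytes and platelets were among them. Of the 12588 genes tested, 64 (0.508%) differed at an adjusted p under 0.05 and at least 2-fold, and these are called changed. Of them, 55 were higher (0.437% of genes tested) and 9 lower (0.0715%) in RUNX1C KO cells. The median log2 fold change was 1.56 for the genes that rose, -1.50 for those that fell and -0.01 for all genes tested. All 64 had 3 libraries of one group above all 3 of the other, as had 21.4% of the tested genes. By the adjusted p alone, 168 genes were higher (1.33%) and 35 lower (0.278%). The quasi-likelihood F-test gave 1955 genes an unadjusted p under 0.05, so the small count of changed genes does not show the groups to be alike. The plot of fold change against level shows the genes that rose at low and middling levels.

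**Figure D1:**
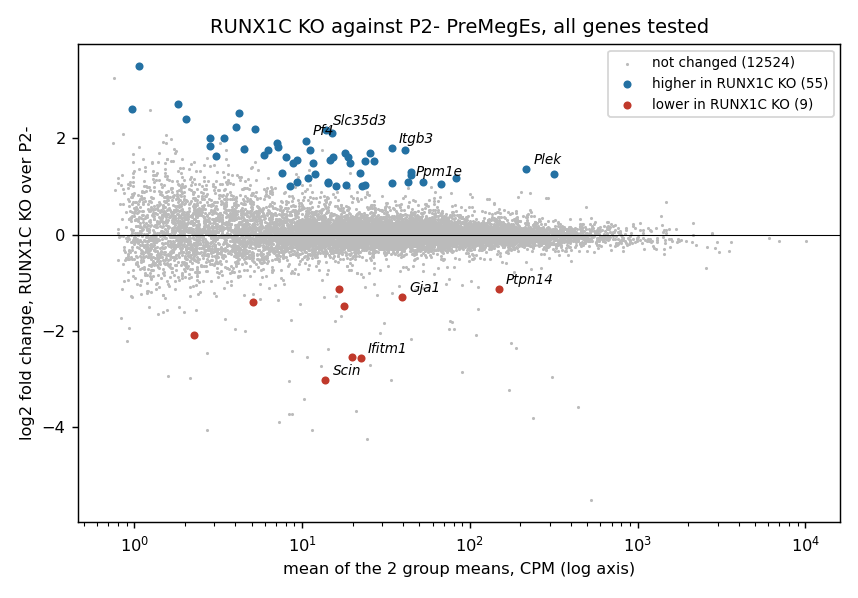
Each point is 1 of the 12588 genes tested, with the mean of the group means in CPM on a log axis and the log2 fold change of RUNX1C KO over P2- on the vertical axis. Blue points are the 55 genes that rose and red points the 9 that fell. The grey points far below 0 include the immediate early genes that, among the RUNX1C KO and P2- libraries, were high in P2- replicate 2 alone.

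The count of changed genes depended on single libraries. It was 97 without P2- replicate 2, 76 without replicate 3 and 51 without replicate 1 of the P2- group, and 27, 23 and 36 without RUNX1C KO replicates 1, 2 and 3. By the adjusted p alone and without P2- replicate 2, 308 of 12451 genes were higher (2.47%) and 101 lower (0.811%), which is the background for the counts of lists in that fit. In all 6 of these fits the genes that rose outnumbered those that fell, and all of the 64 genes that were still tested kept their sign. Of the 79 genes that were changed or were list members past the adjusted p, 26 kept an adjusted p under 0.05 whichever library was left out. Among them were Scin, Gja1, Ptpn14, Ppm1e, Pf4, Slc35d3, Itga2b, F2rl2, Ptgs1, Plek, Treml1, Gp5, Gucy1b3, Csf3r, Itga9, Cdkn2c and Runx1. For the others named below, adjusted p values past the threshold are given with the library left out.

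The 10 largest rises among genes of at least 10 CPM were in Slc35d3, Kcnj5, Pf4, Gp1bb, Tifab, Itgb3, Cuedc1, Sdpr, F2rl2 and Ptgs1. Slc35d3, a sugar nucleotide transporter of platelet dense granules, was 23.1, 25.6 and 19.6 CPM in the RUNX1C KO libraries and 3.19, 4.52 and 7.27 CPM in the P2- libraries. This was a 4.50-fold difference (log2 2.17 ± 0.26 SE, n = 3 and 3, adjusted p = 0.00371). Its level in RUNX1C KO cells lay near that in WT PreMegEs (30.8 CPM ± 7.03 SD, n = 3) and below that in P2+ PreMegEs (73.4 ± 18.9).

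Kcnj5, an inwardly rectifying potassium channel, was 22, 30.9 and 20.9 CPM in RUNX1C KO and 3.90, 3.75 and 9.04 CPM in P2- libraries. The groups were far apart (log2 2.12 ± 0.31, adjusted p = 0.00915), with an adjusted p of 0.0641 without RUNX1C KO replicate 2. Pf4, the alpha granule chemokine, was 17.7, 18.3 and 14.2 CPM in RUNX1C KO and 3.58, 3.08 and 6.14 CPM in P2- libraries (log2 1.95 ± 0.25, adjusted p = 0.00479). Unlike Slc35d3, Pf4 stayed far below WT cells, in which it was 65.8, 80.4 and 74.4 CPM.

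Gp1bb, a chain of the von Willebrand factor receptor, was 11.8, 11.8 and 10.0 CPM in RUNX1C KO and 3.43, 1.35 and 3.96 CPM in P2- libraries (log2 1.91 ± 0.31, adjusted p = 0.0161). The adjusted p was 0.0616 to 0.0986 without RUNX1C KO replicate 1, 2 or 3. Tifab, a TIFA-related signalling protein, was between 10.7 and 11.9 CPM in RUNX1C KO and between 1.35 and 4.03 CPM in P2- libraries (log2 1.82 ± 0.32, adjusted p = 0.0218). It was the least firm of the 10: the adjusted p was 0.0884 to 0.119 without RUNX1C KO replicate 1, 2 or 3 and 0.149 with all 12 libraries in one fit, and in WT and P2+ cells replicate 1 alone was high (21.9 and 26.5 CPM, against at most 7.56 CPM in the others).

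Both chains of the platelet fibrinogen receptor rose. Itgb3 (integrin β3) was 53, 60.9 and 46.2 CPM in RUNX1C KO and 17.4, 7.79 and 20.1 CPM in P2- libraries (log2 1.80 ± 0.26, adjusted p = 0.00836). Itga2b (integrin αIIb, CD41) was 122, 112 and 112 CPM in RUNX1C KO and 38.7, 52.8 and 61.6 CPM in P2- libraries (log2 1.17 ± 0.14, adjusted p = 0.00386). The groups did not overlap for either gene. Both stood lower than in WT cells, with log2 fold changes of RUNX1C KO over WT of -0.91 (adjusted p = 7.5e-05) and -0.45 (adjusted p = 0.00053). For Itgb3 the adjusted p against P2- was 0.0582 to 0.0652 without RUNX1C KO replicate 1 or 2.

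F2rl2, the thrombin receptor subunit PAR3 of mouse platelets, was 32.5, 48.1 and 36.9 CPM in RUNX1C KO and 10.1, 11 and 14.8 CPM in P2- libraries (log2 1.70 ± 0.18, adjusted p = 0.00266). Ptgs1, the cyclooxygenase of the thromboxane pathway, was 27.5, 30.9 and 24.4 CPM against 8.05, 7.40 and 9.89 CPM (log2 1.70 ± 0.16, adjusted p = 0.000981). These were among the most even of the rises, and both kept their calls when any library was left out. A gene on the opposite strand, Gm43621, overlaps Ptgs1, and the use of strand in counting is not stated.

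Sdpr (cavin-2, a caveola protein) rose from 18.5 CPM ± 8.11 to 63.2 CPM ± 8.54 (SD, n = 3; log2 1.76 ± 0.25, adjusted p = 0.00736), and Cuedc1, a CUE-domain protein, from 5.01 ± 1.92 to 17.2 ± 2.59 CPM (log2 1.76 ± 0.26, adjusted p = 0.0093). Sdpr had an adjusted p of 0.0502 to 0.0583 without RUNX1C KO replicate 1 or 2, and that of Cuedc1 was 0.0571 to 0.073 without RUNX1C KO replicate 1 or 3.

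**Figure D2:**
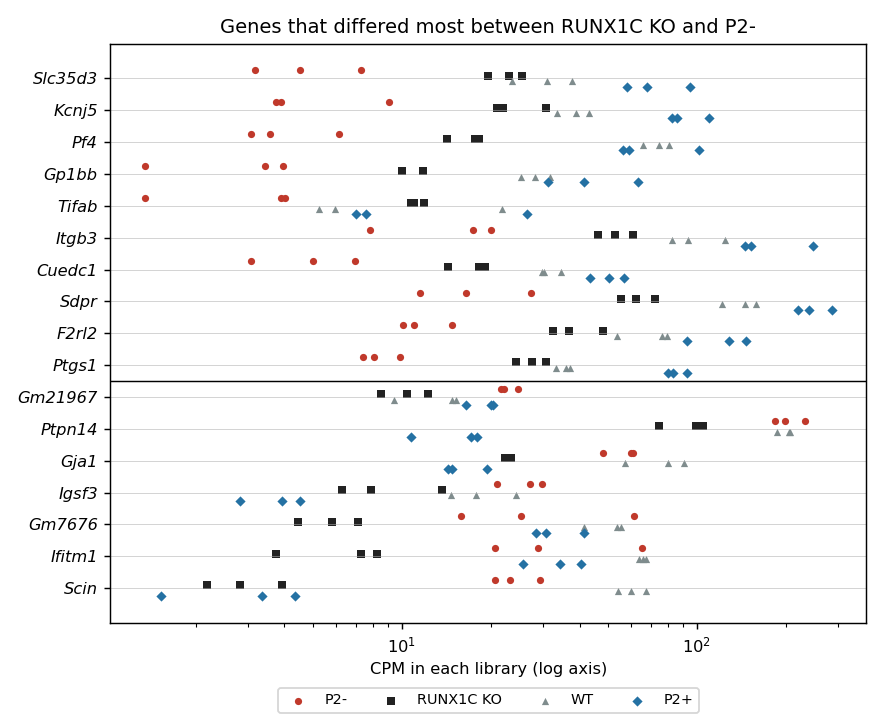
CPM in each of the 12 libraries on a log axis, for the 10 genes with the largest rise (above the line) and the 7 with a fall (below the line) among changed genes of at least 10 CPM. For Slc35d3, Kcnj5, Pf4, Gp1bb, Itgb3, Cuedc1, Sdpr, F2rl2 and Ptgs1 the RUNX1C KO points (squares) lie between those of P2- (circles) and P2+ (diamonds), whereas Ifitm1 and Gm7676 are lower in RUNX1C KO than in all other libraries.

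Of 29 genes typical of megakaryocytes and platelets, 26 were tested and all 26 had a higher estimate in RUNX1C KO cells. Of these, 17 passed an adjusted p of 0.05, 12 of them at 2-fold or more, and 0 fell, with a median log2 fold change of 1.10 against -0.01 over all genes, of which 1.33% were higher by the adjusted p. The list's summed level was between 1209 and 1355 CPM in RUNX1C KO, 568, 516 and 684 CPM in P2-, between 1763 and 1956 CPM in WT and between 2789 and 3877 CPM in P2+ libraries, so the 4 groups did not overlap. Leaving out P2- replicate 2, 20 members rose and 0 fell, with a median of 0.96. The list was written with earlier results of these data known, so its counts are not independent evidence of a direction. More cells of a megakaryocyte-biased kind and more RNA of these genes per cell cannot be told apart in bulk samples.

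Among the 17 members that rose, Gp9, a partner of GPIb, was 30.4, 30.5 and 31.0 CPM against 12.5, 14 and 18.9 CPM (log2 1.01 ± 0.15, adjusted p = 0.0114), and Vwf, the ligand of that receptor, rose by a log2 fold change of 1.04 ± 0.19 (adjusted p = 0.024). Gp5 (log2 0.78 ± 0.07, adjusted p = 0.000981) and Gp1ba (log2 0.55 ± 0.10, adjusted p = 0.0212) rose by less than 2-fold. Treml1, an alpha granule receptor, was 36.1, 45.6 and 38.5 CPM in RUNX1C KO and 11.5, 11 and 18.8 CPM in P2- libraries (log2 1.53 ± 0.20, adjusted p = 0.00479), and was also higher than in WT cells (log2 0.79, adjusted p = 0.00032). The adjusted p of Gp9 was 0.0647 to 0.073 without RUNX1C KO replicate 1, 2 or 3, that of Vwf 0.0809 without P2- replicate 1 and 0.0677 to 0.111 without RUNX1C KO replicate 1, 2 or 3, and that of Gp1ba 0.0654 without P2- replicate 1 and 0.0975 to 0.127 without RUNX1C KO replicate 1, 2 or 3.

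Of the others that rose, Plek (pleckstrin, the protein kinase C substrate of platelets) was 306, 359 and 269 CPM against 105, 102 and 155 CPM (log2 1.36 ± 0.16, adjusted p = 0.00371). Gucy1b3, a subunit of soluble guanylate cyclase, was 5.86, 8.30 and 7.29 CPM against 1.04, 1.06 and 1.55 CPM (log2 2.53 ± 0.29, adjusted p = 0.00371). Pde10a, a cyclic nucleotide phosphodiesterase, was 5.51, 7.45 and 7.10 CPM against 0.876, 1.25 and 2.05 CPM (log2 2.23 ± 0.33, adjusted p = 0.00958). Rab27b, a granule GTPase, and the tetraspanin Cd9 also passed the test, at log2 fold changes of 0.89 and 0.53. Pde10a had an adjusted p of 0.0578 to 0.0667 without RUNX1C KO replicate 2 or 3, and that of Cd9 0.0787 to 0.0992 without RUNX1C KO replicate 1, 2 or 3.

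The other 9 members did not pass the test. P2rx1, an ATP receptor of the platelet surface (log2 1.04, adjusted p = 0.0814), Tbxas1, thromboxane synthase (log2 0.84, adjusted p = 0.0553), and Thbs1, thrombospondin 1 (log2 1.76, adjusted p = 0.0952), passed it without P2- replicate 2, at adjusted p of 0.0174, 0.0178 and 0.000576. Ppbp, a chemokine precursor, was 21.1, 11 and 15.4 CPM in RUNX1C KO and 14.9, 0 and 3.53 CPM in P2- libraries (adjusted p = 0.452), and Tubb1, the platelet β-tubulin, had a log2 fold change of 0.89 (adjusted p = 0.164). Mmrn1 had no count in any of the 6 libraries.

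No erythroid gene passed the test. Of the 26 tested, 11 estimates were above 0 and 15 below, and the median log2 fold change was -0.10. Their summed level was between 6225 and 6982 CPM in RUNX1C KO and between 6509 and 7219 CPM in P2- libraries, against between 3843 and 4408 CPM in WT and between 1806 and 2107 CPM in P2+ libraries. When P2- replicate 2 was left out, 1 member was lower and 0 higher. Klf1, the erythroid master regulator, was 362, 379 and 375 CPM in RUNX1C KO and 438, 355 and 377 CPM in P2- libraries (log2 -0.07 ± 0.08, adjusted p = 0.715), and the estimate was 0.02 without P2- replicate 1. Aqp1, the water channel of red cells, was 2824 CPM ± 169 and 2768 CPM ± 130 (SD, n = 3; log2 0.02 ± 0.05, adjusted p = 0.863). Epor, the erythropoietin receptor, was 114 ± 8.90 and 108 ± 15.2 CPM (log2 0.07 ± 0.10, adjusted p = 0.788), and its estimate was -0.04 without P2- replicate 2. Of the 21 heme synthesis and iron genes, 0 passed the test (median log2 -0.04), and 1 was lower and 0 higher without P2- replicate 2.

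**Figure D3:**
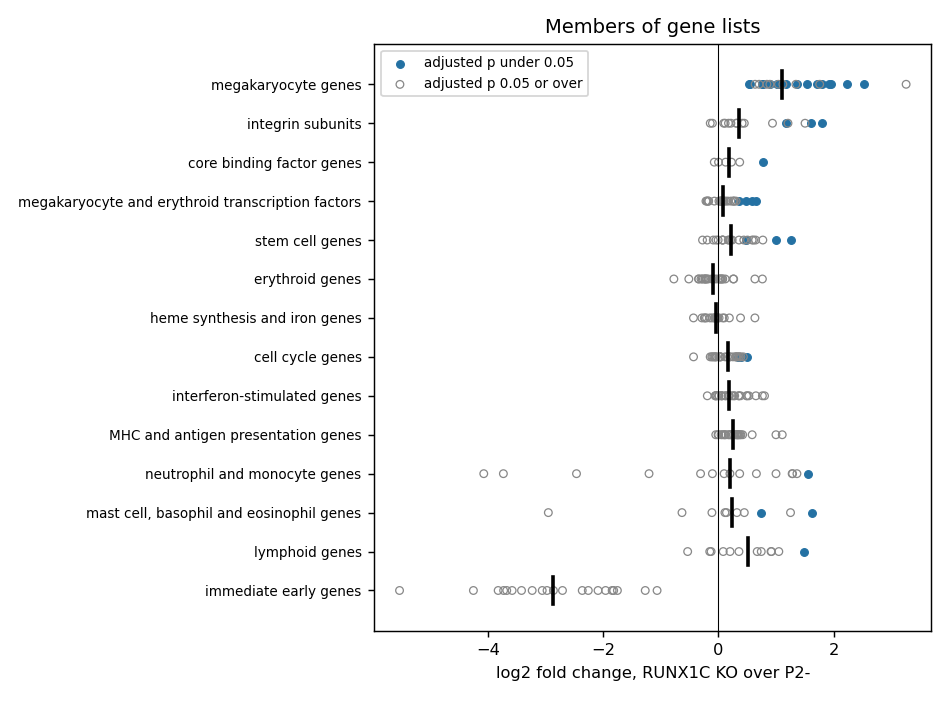
Log2 fold change of RUNX1C KO over P2- for each tested member of 14 gene lists, filled where the adjusted p was under 0.05, with the list's median as a black bar. The megakaryocyte list lies wholly above 0 with a median of 1.10, the erythroid list spreads around 0 with a median of -0.10, and the immediate early list lies below 0 and does so in the fit that holds P2- replicate 2.

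Among 25 tested transcription factors of the megakaryocyte and erythroid lineages, 4 rose and 0 fell, beside 1.33% and 0.278% of all tested genes, with a median log2 fold change of 0.08. These were Fli1 (log2 0.65 ± 0.11, adjusted p = 0.0203), Erg (0.58 ± 0.09, adjusted p = 0.00958), Meis1 (0.48 ± 0.10, adjusted p = 0.0427) and Lyl1 (0.36 ± 0.06, adjusted p = 0.0212). Fli1 and Erg are Ets factors, Meis1 is a cofactor of Hox proteins, and Lyl1 is a relative of Tal1. Fli1 was 162, 184 and 162 CPM in RUNX1C KO and 96.1, 97.7 and 129 CPM in P2- libraries, all below the 255, 279 and 261 CPM of WT cells. All 4 lost the threshold in some fits with 1 library left out: the adjusted p of Fli1 was 0.0597 without P2- replicate 1 and 0.0771 to 0.111 without RUNX1C KO replicate 1, 2 or 3, that of Erg 0.0544 to 0.0684 without RUNX1C KO replicate 2 or 3, that of Meis1 0.0658 to 0.0921 without P2- replicate 1 or 3 and 0.121 to 0.188 without RUNX1C KO replicate 1, 2 or 3, and that of Lyl1 0.0969 to 0.123 without RUNX1C KO replicate 1, 2 or 3. Gata1 (log2 0.04, adjusted p = 0.82), Tal1 (0.03, adjusted p = 0.845) and Gfi1b (0.27, adjusted p = 0.122) did not pass the test, and the estimate for Tal1 was -0.00388 without P2- replicate 2. In that fit 4 members of the list were higher and 1 was lower.

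Runx1, counted over both promoters, was 341, 382 and 358 CPM in RUNX1C KO, 214, 203 and 217 CPM in P2-, 363, 387 and 358 CPM in WT and 659, 622 and 614 CPM in P2+ libraries. RUNX1C KO libraries were thus above all P2- libraries (log2 0.77 ± 0.07, adjusted p = 0.000848) and overlapped WT (log2 -0.05, adjusted p = 0.702). Because the count does not separate the isoforms, it does not check the knockout. P2- cells carry the reporters in 1 of their Runx1 alleles, and the study speaks of Runx1 haploinsufficiency in mice of this genotype. Its P1-GFP allele leaves transcription of Runx1 from P2 intact. The part of Runx1 copy number in the difference was not tested. Of the other 5 tested core binding factor genes, Runx3 had a log2 fold change of 0.23 and Cbfb, the partner subunit, one of -0.07, and none passed the test. In the fit without P2- replicate 2, 3 members of this list rose.

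Of 46 tested genes that start within 5 Mb of the start of Runx1 on chromosome 16, 0 were changed by both criteria, and the median log2 fold change was 0.06. Below 2-fold, Runx1, Itsn1, Erg and Ttc3 rose, and Cbr1 (log2 -0.73, adjusted p = 0.00736) and Hmgn1 (log2 -0.39, adjusted p = 0.0257) fell. These 6 of 46 genes stand beside 1.61% of all tested genes past the adjusted p. All but Runx1 and Erg were named after their values were seen. Adjusted p values past the threshold with 1 library left out were 0.0652 to 0.0743 without RUNX1C KO replicate 1 or 2 for Itsn1, 0.0554 without P2- replicate 1 or 3 and 0.0847 to 0.133 without RUNX1C KO replicate 1, 2 or 3 for Ttc3, 0.0598 to 0.0621 without RUNX1C KO replicate 1 or 2 for Cbr1 and 0.0753 without P2- replicate 1 and 0.0962 to 0.153 without RUNX1C KO replicate 1, 2 or 3 for Hmgn1. Across chromosomes the changed share was highest on chromosome 13 (1.08%) and was 0 on chromosomes 14, 18, X, Y and M.

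Of 22 tested stem cell genes, 3 rose and 0 fell (median log2 0.22), and of 16 integrin subunits likewise 3 and 0, beside 1.33% and 0.278% of all tested genes. Among them was Esam, an adhesion molecule shared with megakaryocytes, at 11.1, 11.2 and 11.8 CPM in RUNX1C KO and 5.42, 5.58 and 5.93 CPM in P2- libraries (log2 1.01 ± 0.17, adjusted p = 0.0199). Meis1, described above, was another. Esam had an adjusted p of 0.0573 without P2- replicate 1 and 0.0859 to 0.0952 without RUNX1C KO replicate 1, 2 or 3. With P2- replicate 2 left out, 5 members rose. The integrin subunits that rose were Itgb3, Itga2b and Itga9, a receptor subunit for tenascin and osteopontin, which was 11.1, 13.4 and 11.7 CPM against 3.19, 3.94 and 4.66 CPM (log2 1.60 ± 0.21, adjusted p = 0.00479). Itga6 (integrin α6) was added without P2- replicate 2, at a log2 fold change of 0.32 and an adjusted p of 0.0119, against 0.31 and 0.053 with it. Of the 7 tested antigens of the PreMegE gate 1 rose, Itga2b, and 3 rose in the fit without P2- replicate 2. Of the 12 genes that the study names for the megakaryocyte and erythroid pathway, 6 rose and 0 fell, and 7 rose in that fit. The study reported several of them from the P2-, P2+ and WT cells of this series, so they are not independent evidence of a direction.

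In the marker lists of neutrophils and monocytes, of lymphoid cells and of mast cells, basophils and eosinophils, 1, 1 and 2 members rose and 0 fell, beside 1.33% and 0.278% of all tested genes. Of 15 tested neutrophil and monocyte genes, 1 rose, Csf3r, the G-CSF receptor (15.4, 12.9 and 13.7 CPM against 4.38, 4.71 and 5.09 CPM, log2 1.56 ± 0.18, adjusted p = 0.00348). The granule gene Ngp was 0.524, 3.00 and 0 CPM in RUNX1C KO and 2.31, 42.0 and 4.03 CPM in P2- libraries, so that P2- replicate 2 was high here too (adjusted p = 0.157). The list summed to between 149 and 212 CPM in RUNX1C KO and to 125, 222 and 120 CPM in P2- libraries, so that all RUNX1C KO libraries were above P2- replicates 1 and 3 and below replicate 2. Of 12 tested lymphoid genes 1 rose, Ighm, the heavy chain of IgM (log2 1.49 ± 0.23, adjusted p = 0.0119), and the list summed to between 182 and 191 CPM against between 140 and 177 CPM without overlap, with 2 of its 26 matched genes at 0 in all 6 libraries. Ighm had an adjusted p of 0.0535 to 0.0787 without RUNX1C KO replicate 1, 2 or 3. In the fit without P2- replicate 2, 5 of 13 neutrophil and monocyte genes (median log2 0.56) and 1 of 11 lymphoid genes rose, beside 2.47% of all tested genes.

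Of 10 tested mast cell, basophil and eosinophil genes, Ms4a2, a chain of the IgE receptor (32.2, 19.1 and 33.4 CPM against 9.64, 10.8 and 7.20 CPM, log2 1.62 ± 0.23, adjusted p = 0.00804), and Cpa3, the mast cell carboxypeptidase (log2 0.75 ± 0.15, adjusted p = 0.033), rose and 0 fell. Their list summed to between 675 and 786 CPM in RUNX1C KO and between 590 and 651 CPM in P2- libraries without overlap, with 6 of 21 genes at 0 in all 6 libraries. Of 4 tested macrophage, endothelial and stromal genes 0 passed, at summed levels between 61.8 and 73.5 CPM against between 57.1 and 68.2 CPM. Ms4a2 had an adjusted p of 0.0535 to 0.0598 without RUNX1C KO replicate 1 or 3, and that of Cpa3 0.0543 to 0.0658 without P2- replicate 1 or 3 and 0.0704 to 0.165 without RUNX1C KO replicate 1, 2 or 3. In the fit without P2- replicate 2, 3 genes of the mast cell list rose. The part of other cells in the differences was not tested.

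The genes that fell were fewer and of another kind. Scin (scinderin, an actin-severing protein of the gelsolin family) was 3.93, 2.83 and 2.19 CPM in RUNX1C KO and 29.5, 23.3 and 20.7 CPM in P2- libraries, an 8.19-fold lower level (log2 -3.03 ± 0.23, adjusted p = 0.000728). It was the only gene that passed a test against a 2-fold change (edgeR's glmTreat). Scin was 59.8, 67.0 and 54.0 CPM in WT and 3.35, 4.35 and 1.53 CPM in P2+ libraries, so that RUNX1C KO and P2+ libraries overlapped (log2 -0.06, adjusted p = 0.925).

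Gja1 (connexin 43, a gap junction protein) was 22.4, 23.5 and 22.6 CPM in RUNX1C KO and 60.9, 48.0 and 59.7 CPM in P2- libraries (log2 -1.31 ± 0.11, adjusted p = 0.000728). Ptpn14, a protein tyrosine phosphatase, was 74.2, 99.5 and 105 CPM against 232, 183 and 199 CPM (log2 -1.14 ± 0.13, adjusted p = 0.00348), and Igsf3, an immunoglobulin superfamily protein, was 6.29, 7.88 and 13.7 CPM against 29.8, 21.1 and 27.3 CPM (log2 -1.50 ± 0.25, adjusted p = 0.0199). Ptpn14 was far lower still in P2+ libraries (17.9, 17.1 and 10.8 CPM) and stood in WT libraries (186, 207 and 205 CPM) in the range of P2- cells, with which they overlapped (log2 of P2- over WT 0.04, adjusted p = 0.83). Igsf3 had an adjusted p of 0.0608 without P2- replicate 1 and 0.0962 to 0.117 without RUNX1C KO replicate 1 or 2. It and Ptpn14 each overlap a gene on the opposite strand.

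Ifitm1, an interferon-induced transmembrane protein, was 8.21, 7.28 and 3.73 CPM in RUNX1C KO, 28.8, 65.2 and 20.7 CPM in P2-, 63.7, 67.0 and 65.5 CPM in WT and 34.4, 40.4 and 25.7 CPM in P2+ libraries. All 3 RUNX1C KO libraries were below all 9 others, and the level was 5.94-fold lower than in P2- cells (log2 -2.57 ± 0.42, adjusted p = 0.0161). P2- replicate 2 was the highest of its group, and without it the call was kept at a log2 fold change of -1.94. The adjusted p was 0.0839 to 0.0898 without RUNX1C KO replicate 1, 2 or 3 and 0.0646 with limma-voom. Gm7676 on chromosome 8, a processed pseudogene in GENCODE, is 97.5% identical over 319 bases to an Ifitm1 transcript, and 6 of its 245 windows of 75 bases are found unchanged there. It was 7.08, 5.82 and 4.46 CPM against 25.3, 61.1 and 15.8 CPM (log2 -2.55 ± 0.44, adjusted p = 0.0212), and reads of the pair may have been split between them. Its log2 fold change was -1.82 without P2- replicate 2, and its adjusted p was 0.1 to 0.127 without RUNX1C KO replicate 1, 2 or 3 and 0.105 with limma-voom.

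The neighbours of Ifitm1 on chromosome 7 did not pass the test. Ifitm2 was 114, 137 and 128 CPM against 140, 159 and 156 CPM (log2 -0.27 ± 0.09, adjusted p = 0.161), and Ifitm3 was 50.5, 57.0 and 48.0 CPM against 38.0, 49.5 and 49.2 CPM (log2 0.18 ± 0.12, adjusted p = 0.502). Of 27 tested interferon-stimulated genes outside the family, 0 passed the test, with a median log2 fold change of 0.18, and 1 rose without P2- replicate 2. Of 25 genes of the MHC and antigen presentation, 0 passed (median 0.26), with 23 estimates above 0, and 1 rose without P2- replicate 2.

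The other 3 genes that fell are less well characterised: Gm21967 (log2 -1.14 ± 0.16, adjusted p = 0.00735), Gm7120 (-1.40 ± 0.23) and 9430002A10Rik (-2.10 ± 0.38). The adjusted p of Gm21967 was 0.0577 without RUNX1C KO replicate 2, that of Gm7120 0.0582 to 0.0787 without RUNX1C KO replicate 1, 2 or 3, and that of 9430002A10Rik 0.0506 to 0.056 without P2- replicate 1 or 3 and 0.131 to 0.133 without RUNX1C KO replicate 1 or 2. The last 2 were below 10 CPM and were named after their values were seen.

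**Figure D4:**
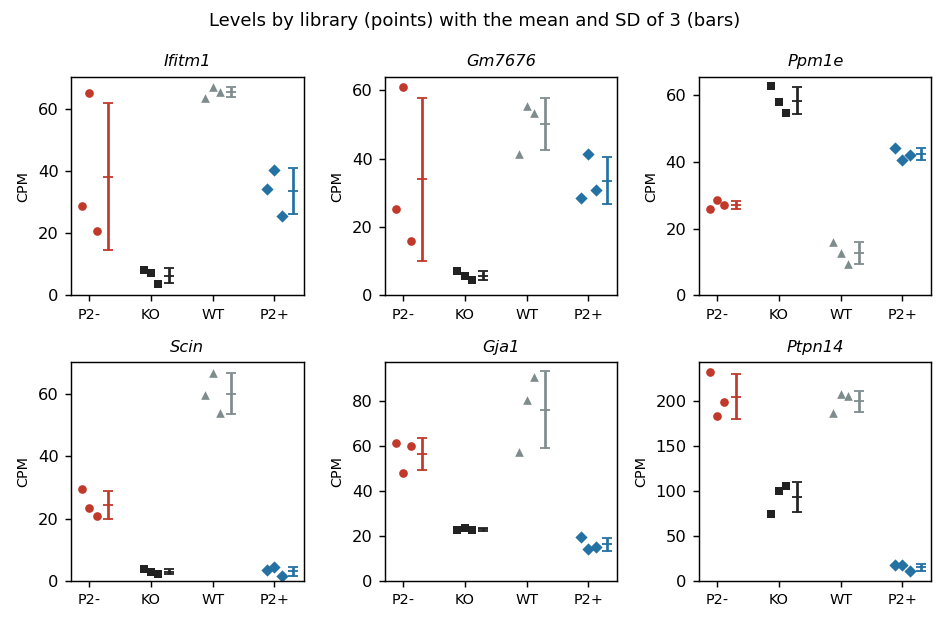
CPM of Ifitm1, Gm7676, Ppm1e, Scin, Gja1 and Ptpn14 in each library of the 4 groups (points) with the mean and SD of 3 libraries (bars). Ifitm1 and Gm7676 are lowest and Ppm1e highest in RUNX1C KO (KO), whereas Scin and Gja1 are low in both RUNX1C KO and P2+ libraries. Ptpn14 is lower in RUNX1C KO than in P2- libraries and far lower still in P2+ libraries.

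Of the 55 genes that rose, 1 had all RUNX1C KO libraries above all 9 others (1.39% of tested genes did), and of the 9 that fell, 2 had them below (1.2%). The riser was Ppm1e, a serine/threonine phosphatase, named after its values were seen, with 62.7, 57.9 and 54.6 CPM in RUNX1C KO, 26.0, 28.5 and 27.1 CPM in P2-, 16.0, 12.7 and 9.55 CPM in WT and 44.3, 40.6 and 42.1 CPM in P2+ libraries. Its difference from P2- cells (log2 1.10 ± 0.09, adjusted p = 0.000728) was among the most even of all, and it was also higher than in WT (log2 2.19, adjusted p = 1.3e-08) and P2+ cells (log2 0.45, adjusted p = 0.0023). Fhdc1, a formin homology protein, and Hmga2, a chromatin protein of fetal stem cells, were picked after their values were seen. They also rose over both P2- (log2 1.26 and 1.10) and WT cells (log2 1.56 and 1.33), but not over P2+ cells. Against P2+ cells, Fhdc1 did not pass the test (log2 -0.16, adjusted p = 0.536) and Hmga2 was lower (log2 -0.86, adjusted p = 0.00176). The adjusted p against P2- cells was 0.0704 to 0.0859 without RUNX1C KO replicate 2 or 3 for Fhdc1 and 0.0717 to 0.081 without P2- replicate 1 or 3 and 0.1 to 0.14 without RUNX1C KO replicate 1, 2 or 3 for Hmga2.

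The genes that differed were set beside those that differ between P2+ and WT cells, a comparison that shares no library with this one, though P2+ and P2- cells came from mice of the same genotype. In P2+ cells 280 genes were higher than in WT (2.16% of 12941 tested) and 217 lower (1.68%). Of the 55 genes higher in RUNX1C KO than in P2- cells, 26 were among the 280 (47.3% of the 55 and 9.29% of the 280) and 0 among the 217. Of the 9 lower genes, 4 were among the 217 (44.4% of the 9 and 1.84% of the 217), namely Scin, Gja1, Igsf3 and Ptpn14, and 0 among the 280. Ifitm1 and Gm7676 were not among them. By the adjusted p alone, 143 of the 168 higher genes were among 1223 genes higher in P2+ than in WT cells (9.45% of genes tested), and 25 of the 35 lower genes among 915 lower ones (7.07%).

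The libraries were also placed on the line from the P2- mean (0%) to the P2+ mean (100%) over 13272 genes. RUNX1C KO libraries lay at 23.3% ± 3.31 of the way (SD, n = 3, between 19.6 and 25.9%) and WT libraries at 52.5% ± 0.573. Because the P2- libraries define the line, each was also left out of it in turn, and they then lay at 8.74, 13.8 and 11.1%, still below all RUNX1C KO libraries. The positions are a description of these libraries and were not tested.

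**Figure D5:**
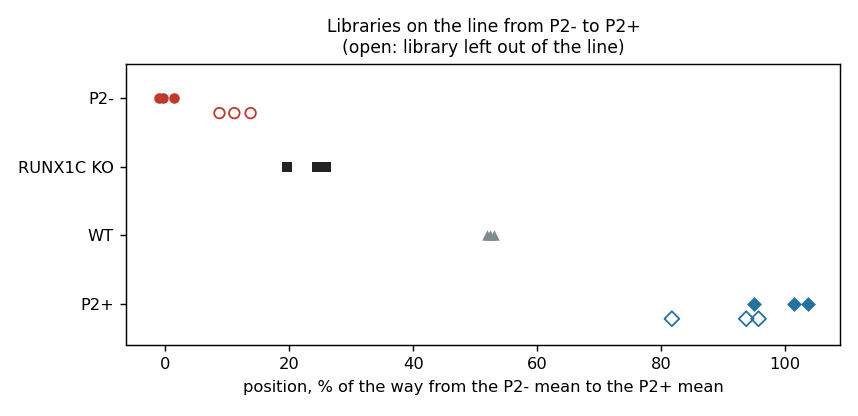
Position of each library on the line from the P2- mean to the P2+ mean, in % of the way, by group, with open symbols for P2- and P2+ libraries placed on a line made without them. RUNX1C KO libraries lie between 19.6 and 25.9%, above the left-out P2- libraries (8.74 to 13.8%) and below WT (52.5% on average).

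Of 28 tested cell cycle genes, 3 rose and 0 fell, beside 1.33% and 0.278% of all tested genes, with a median log2 fold change of 0.17: Mki67, the proliferation antigen (log2 0.39 ± 0.07, adjusted p = 0.0242), Ccnd3, cyclin D3 (0.34 ± 0.07, adjusted p = 0.033), and Cdc25b, a phosphatase of mitotic entry (0.49 ± 0.10, adjusted p = 0.033). The adjusted p of Mki67 was 0.0753 without P2- replicate 1 and 0.148 without RUNX1C KO replicate 2 or 3, that of Ccnd3 0.0801 to 0.0871 without P2- replicate 1 or 3 and 0.135 to 0.153 without RUNX1C KO replicate 1, 2 or 3, and that of Cdc25b 0.0781 without P2- replicate 3 and 0.1 to 0.165 without RUNX1C KO replicate 1, 2 or 3. Of 16 CDK inhibitors and p53 targets, Cdkn2c (p18) rose, at 76.4, 89.5 and 75.2 CPM against 50.3, 50.5 and 46.8 CPM (log2 0.70 ± 0.09, adjusted p = 0.00479). Cdkn1a (p21) was 4.89, 3.77 and 5.01 CPM against 5.42, 64.0 and 2.40 CPM (adjusted p = 0.266), with P2- replicate 2 again the high library.

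Of the 21 tested immediate early genes, 0 passed the test, and 21 estimates were below 0 with a median log2 fold change of -2.87. Without P2- replicate 2 the median was 0.57, and 3 of 20 rose. Egr1, an immediate early transcription factor, shows it: it was 24.8, 18.3 and 24 CPM in RUNX1C KO and 26.2, 3041 and 27.3 CPM in P2- libraries. Of 13 tested stress response genes 0 passed the test, with a median of -0.29, and -0.02 without P2- replicate 2, where 1 was lower.

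No metabolic list had a member past the threshold. Of 22 cholesterol synthesis genes 0 passed the test (median -0.04), and of 18 tested glycolysis genes 0 passed (median -0.11). Without P2- replicate 2, 1 cholesterol gene rose and 1 glycolysis gene fell. None of the 5 sex-linked genes passed. Their sum, mostly Xist, was 873, 249 and 2732 CPM in P2- replicates 1, 2 and 3 and ranged from 1611 to 2210 CPM among RUNX1C KO libraries. The study used males and females, and the wide spread among P2- libraries limits what this test can show. Ribosomal protein genes took 1.97% of counts in RUNX1C KO and 2.10% in P2- libraries on average, and genes that the count table classes as pseudogenes took 8.04% and 8.56%. Neither share overlapped between groups. Each gave p = 0.1 in a two-sided exact permutation test, which is the smallest value possible with 3 against 3. Mitochondrially encoded genes (p = 0.3) and histone genes (p = 1) overlapped between the groups in the same exact test.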

How the data were processed

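RNA-Seq of sorted PreMegEs was deposited as integer counts per Ensembl gene and library, not normalized. According to the methods and the submitters' processing notes, the authors aligned paired reads of 75 bp from strand-specific poly(A) libraries to GRCm38 with Bowtie2 and counted them with featureCounts. Whether the counting used the strand, and how reads with several alignments were counted, is not given in the sources used here, so overlapping genes and near-identical copies are uncertain.

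Groups came from the sample labels. The test between RUNX1C KO and P2- libraries used edgeR 4.0.16 (R 4.3.3), with TMM scaling, the quasi-likelihood F-test on group alone and Benjamini-Hochberg adjustment over all 12588 tested genes. Changed genes passed an adjusted p of 0.05 and differed at least 2-fold. CPM values were scaled by TMM over all 12 libraries. The deposited counts allow a precision limited by totals of 10726098 to 14445026 per library. Intervals are SD over libraries or SE of the fit.

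For positions, the log2 CPM (prior count 2) was projected on the line through the P2- and P2+ means. Positions of genes came from GENCODE vM21, and promoters from RefSeq on GRCm38.p6. Other pairs of groups were fitted in the same way and share libraries with this comparison, except P2+ and WT. Alternatives were other tests (exactTest, DESeq2 1.42.0, limma-voom from limma 3.58.1, glmTreat), scalings and filters, all 12 libraries in 1 fit, a replicate block and each library left out. The quasi-likelihood fit (with and without the block), exactTest, DESeq2 and limma-voom were also run on simulated counts with 200 changed genes. The outcome of those runs is not reported here.

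Genes named are the 10 largest rises and falls among changed genes of at least 10 CPM without overlap between groups (7 falls met this), members of the gene lists and the genes the study names for the Mk/Ery pathway, and others are marked as named after their values were seen. A few members of the lists are counted but not reported here by name. The gene lists and the comparison itself were chosen with earlier results of these data known.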

Additional observations from a re-analysis of the deposited data

How the results depend on the processing

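The count of changed genes (64, with 55 higher and 9 lower) moved by more than 1.5 times with edgeR's exactTest (138, with 111 and 27), DESeq2 (108, with 91 and 17), no filter on low counts (158, with 98 and 60), no minimum of 2-fold (203, with 168 and 35) and glmTreat against a 2-fold change (1, with 0 and 1). Over the fits that left out 1 library each, it ranged from 23 to 97, with between 20 and 82 genes higher and between 3 and 15 lower. All 64 genes stayed among those called by exactTest, DESeq2 and the fit without the filter, 60 by limma-voom and 58 by the fit of all 12 libraries.

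With the replicate number as a block, 50 genes were changed (41 higher, 9 lower), 47 of them among the 64. Libraries with the same number did not deviate together from their group means (correlations across genes of 0.03, -0.06 and -0.06), so the numbers were not taken to pair the samples.

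The position of RUNX1C KO libraries between P2- and P2+ was 23.3%, and ranged from 21.8 to 27.4% when 1 P2- or P2+ library was left out. Without the minimum of 2-fold, 143 of 168 higher and 25 of 35 lower genes were shared with P2+ against WT, where 1223 (9.45%) of 12941 tested genes were then higher and 915 (7.07%) lower. Of 432 values of 27 named genes under 16 alternatives, 30 lost the threshold, 5 gained it and 3 changed sign, all of genes that did not pass: Klf1 without P2- replicate 1, and Epor and Tal1 without P2- replicate 2. Over the fits that left out 1 library, log2 fold changes ranged from -0.13 to 0.0196 for Klf1, from -0.0358 to 0.149 for Epor and from -0.00388 to 0.0764 for Tal1. The causes were not tested. At these depths, genes under 0.280 CPM in a library cannot be told from 0.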
